A study of Mus musculus with 6 samples.

Results

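The genes described here mark smooth muscle cells and pericytes, the 2 kinds of mural cell that wrap blood vessels. The set holds 8 named genes of the 35458 in the transcript files: Acta2, Myl9, Cnn1, Tagln and Myh11 for smooth muscle, and Pdgfrb, Rgs5 and Cspg4 for pericytes. They were chosen by name for what they mark, with earlier results of these data known, and all 8 passed the filter on low counts. The libraries came from fetal hearts of wild-type FVB/NJ mice, an inbred strain, collected on gestational day 15. In the nano-TiO2 group the dams inhaled aerosolised titanium dioxide nanoparticles at a target of 12 mg/m3, in a whole-body chamber, for 360 minutes a day on 6 days spread over 8, starting on gestational day 5. In the sham group the dams breathed filtered room air. Dams were 10 weeks old. Each group had 3 libraries, each from pooled hearts of male and female fetuses. The labels do not say how litters were divided among pools, and the p-values below speak only to the differences among these 6 pools. The libraries are the input RNA of an m6A immunoprecipitation study, fragmented total RNA taken with no antibody, so they measure transcript level and not methylation.

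Smooth muscle cells contract when myosin light chain is phosphorylated and the myosin motor pulls on smooth muscle actin filaments. Pericytes sit on capillaries, where they are recruited by platelet-derived growth factor B from endothelium acting on its receptor PDGFRB. Coronary mural cells arise largely from the epicardium, and in the embryo smooth muscle actin and its partners are also made by immature cardiomyocytes, so in whole fetal heart these genes are not exclusive to vessels. In RNA from whole hearts, fewer cells of a type and less RNA per cell cannot be told apart.

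Many smooth muscle genes are driven by serum response factor, which binds a sequence called the CArG box, a run of 6 A or T bases between CC and GG. To show what these letters look like at the members, the 250 bases before the annotated start of 3 contractile genes follow, 5′ to 3′ on the strand of the gene, from RefSeq (GRCm38.p6), with CArG boxes in capitals. The Acta2 window is chr19:34255374-34255623 on the minus strand, that of Myl9 chr2:156775214-156775463 on the plus strand and that of Cnn1 chr9:22099003-22099252 on the plus strand.
Acta2: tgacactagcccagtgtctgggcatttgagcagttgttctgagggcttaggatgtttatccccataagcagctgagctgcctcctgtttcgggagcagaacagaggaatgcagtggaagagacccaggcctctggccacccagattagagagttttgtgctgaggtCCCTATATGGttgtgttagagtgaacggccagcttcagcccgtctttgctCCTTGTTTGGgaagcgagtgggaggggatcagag
Myl9: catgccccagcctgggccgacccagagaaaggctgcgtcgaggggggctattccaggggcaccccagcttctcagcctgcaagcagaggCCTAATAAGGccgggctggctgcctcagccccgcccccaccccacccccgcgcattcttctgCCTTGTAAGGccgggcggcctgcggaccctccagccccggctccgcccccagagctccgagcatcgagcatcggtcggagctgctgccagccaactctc
Cnn1: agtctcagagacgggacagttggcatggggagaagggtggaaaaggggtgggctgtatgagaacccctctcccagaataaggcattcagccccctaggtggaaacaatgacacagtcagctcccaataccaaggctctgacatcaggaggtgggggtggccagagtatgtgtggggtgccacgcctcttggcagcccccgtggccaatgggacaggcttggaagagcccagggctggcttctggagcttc
The search allowed up to 1 mismatch in the 6 core bases; the motif reads the same on both strands, and no other motif was searched. The Acta2 window held 2 boxes with 1 mismatch each, CCCTATATGG at 84 to 75 bases before the start and CCTTGTTTGG at 34 to 25. The Myl9 window held an exact box, CCTAATAAGG, at 161 to 152 bases, and CCTTGTAAGG with 1 mismatch at 99 to 90. The windows of Cnn1, Rgs5 and Cspg4 held none, which says only that these letters are not in these windows. Of the 8 members, 5 had a window in the table. Among 32851 RefSeq windows of this length, 1.47% held an exact box, 8.59% held at least 1 box with up to 1 mismatch and 0.67% held 2 or more. A match is a description of the sequence, not evidence that a factor bound there.

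Salmon reads assigned to genes numbered 12795872 to 21392172 in the nano-TiO2 libraries and 17049953 to 22565476 in the sham libraries. Haemoglobin transcripts took 5.68% to 10.2% of the reads in the nano-TiO2 libraries and 10.6% to 23.4% in the sham libraries, highest in sham 2. Cardiomyocyte, fibroblast, endothelial and epicardial marker lists were detected in every library, as the label heart calls for. Hepatocyte markers summed to 8.20, 20.6 and 38.2 CPM in nano-TiO2 1, 2 and 3 and to 28.2, 1031 and 82.8 CPM in sham 1, 2 and 3, so sham 2 stood apart. Lung epithelium markers summed to 0.304, 290.4 and 1499.5 CPM in the nano-TiO2 libraries and to 147.6, 22.4 and 12.8 CPM in the sham libraries, so nano-TiO2 3 stood apart. CPM here are counts brought to a common library size with TMM factors, which sets the typical gene to no change. The gene-level tests were therefore also run without each library in turn and without sham 2 and nano-TiO2 3 together, and the transcript and bin tests without each library in turn.

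Of the 8 genes, 3 were lower in nano-TiO2 hearts and 0 were higher at an adjusted p under 0.05 by edgeR's quasi-likelihood test (0 higher at an unadjusted p under 0.05). Over all 13930 genes tested, 12.8% were lower and 15.5% higher, so this is read against a background of 28.2% called in either direction. The 3 lower genes were Acta2, Myl9 and Cspg4, all of which lay below 0 in every scaling except log2(TPM + 1) and log2(TPM + 0.1), where Acta2 stayed below and Myl9 and Cspg4 lay above; Myl9 also lay above 0 once a trend over transcript length and GC content was removed. The same 3 were the members whose groups did not overlap in CPM, 3 of 8, against 45.7% of all genes tested. In TPM the groups overlapped for all 3. The median log2 fold change of the members was -0.42, against -0.01 over all genes.

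**Figure D1:**
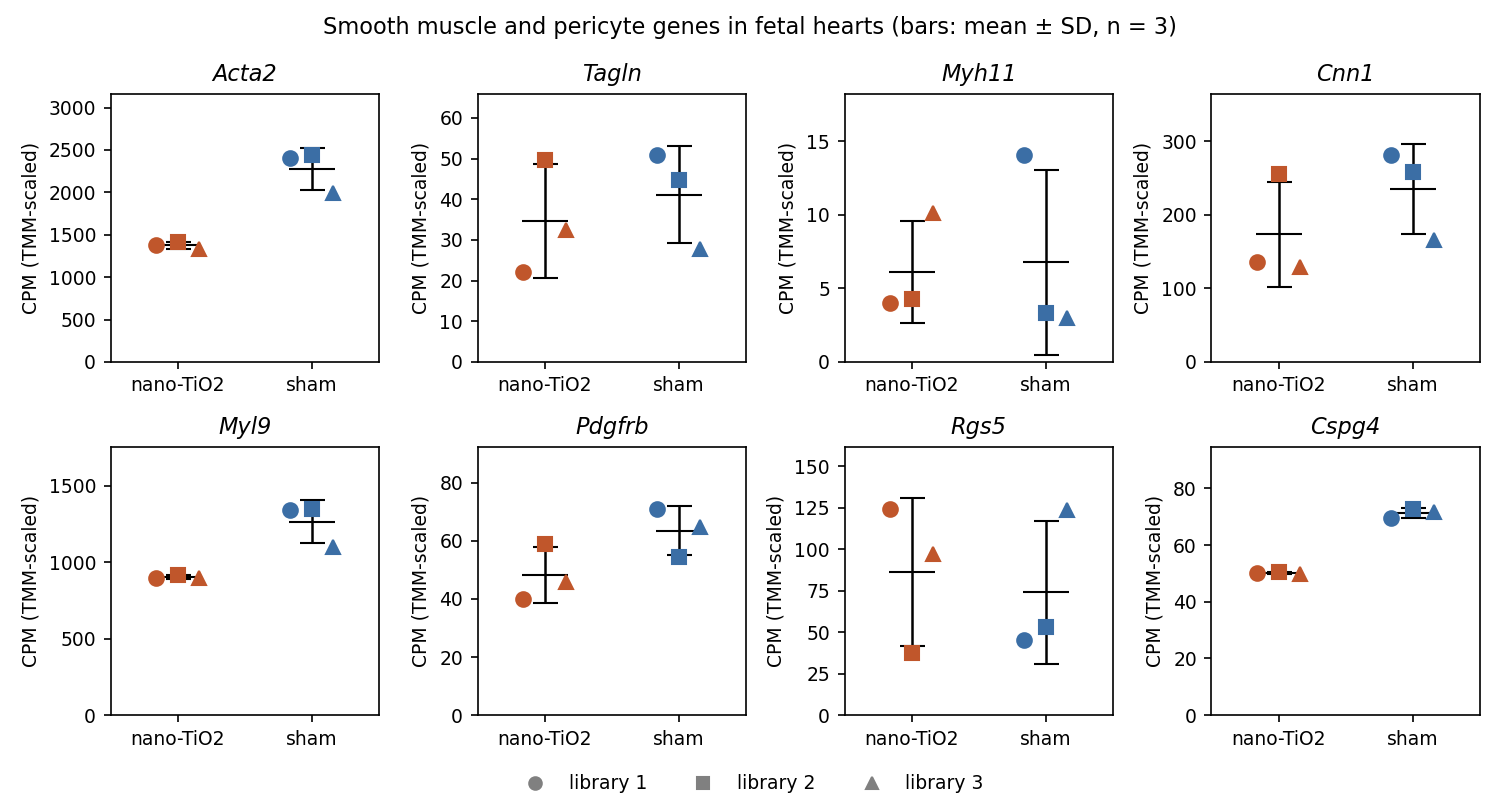
TMM-scaled CPM (linear axes from 0) of each of the 8 genes in the 3 nano-TiO2 and the 3 sham libraries; points are libraries, and the line and error bar are the mean and SD. Acta2, Myl9 and Cspg4 have groups that do not overlap, while the other 5 genes overlap and vary by library.

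Acta2 encodes smooth muscle alpha-actin, the thin-filament actin of vascular smooth muscle. It stood at 1382, 1412 and 1332 CPM in nano-TiO2 1, 2 and 3, against 2408, 2435 and 1990.5 CPM in sham 1, 2 and 3. In CPM every nano-TiO2 library lay below every sham library, and the spread was smaller among the nano-TiO2 libraries. In TPM the groups overlapped, at 792 to 1067 in nano-TiO2 and 840 to 1158 in sham libraries. The means were 1375 ± 40.5 CPM in nano-TiO2 and 2278 ± 249 CPM in sham hearts (SD, n = 3 each), a difference of -39.6%. On the log2 scale edgeR's quasi-likelihood test put the difference at -0.73 ± 0.13 (SE), with an adjusted p = 0.0087. Acta2 still passed without each library in turn (-0.78 to -0.63, adjusted p up to 0.0422). Across genes, log2 fold changes ran with transcript length and GC content: their median was -0.43 in the quintile of shortest and 0.61 in that of longest transcripts. After this trend was taken out of each library, Acta2 was at -0.90 and still passed (adjusted p = 0.0190), while 2.18% of all genes were lower and 1.48% higher. It was at -0.62 without sham 2 and nano-TiO2 3 together (adjusted p = 0.161), where edgeR called 0 of the 14021 genes tested (3350 at an unadjusted p under 0.05).

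Myl9, the regulatory light chain that myosin light chain kinase phosphorylates, stood at 898, 919 and 896 CPM in nano-TiO2 1, 2 and 3, against 1339, 1349.6 and 1101 CPM in sham 1, 2 and 3. In CPM the groups did not overlap, and sham 3 was the lowest sham library for Myl9, as it was for Acta2. In TPM the groups overlapped, at 1002 to 1278 in nano-TiO2 and 868 to 1152 in sham libraries. The means were 904 ± 12.7 CPM in nano-TiO2 and 1263 ± 140.4 CPM in sham hearts (SD, n = 3 each), and edgeR gave -0.48 ± 0.13 on the log2 scale (SE) at an adjusted p = 0.0248. The Myl9 value turned to 0.10 (adjusted p = 0.715) after removal of the trend. Myl9 lies in the quintile of shortest transcripts, whose median log2 fold change was -0.43, and in that of highest GC, whose median was also -0.43. Acta2 lies in the second length quintile (median -0.15) and the third GC quintile (median 0.09). Left-out libraries mattered too: the adjusted p of Myl9 was 0.0902 without nano-TiO2 1, 0.0868 without nano-TiO2 3, 0.131 without sham 1 and 0.112 without sham 2.

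Cnn1 encodes calponin, an actin-binding protein that restrains the myosin motor. It stood at 136, 256 and 129 CPM in nano-TiO2 1, 2 and 3, against 281, 258 and 165 CPM in sham 1, 2 and 3. Nano-TiO2 2 lay among the sham libraries and the other nano-TiO2 libraries below them. The log2 fold change was -0.43 ± 0.30 (SE; adjusted p = 0.30, edgeR), and without nano-TiO2 2 it was -0.83 (adjusted p = 0.0312).

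Tagln encodes transgelin, an actin-associated protein of smooth muscle. It stood at 21.99, 49.7 and 32.5 CPM in nano-TiO2 1, 2 and 3, against 50.8, 44.7 and 27.8 CPM in sham 1, 2 and 3. Nano-TiO2 1 lay below all sham libraries and sham 1 above all nano-TiO2 libraries, and the other 4 libraries overlapped (log2 fold change -0.24 ± 0.32 SE, adjusted p = 0.596, edgeR), and the value was 0.0024 without sham 1. In the GENCODE annotation of GRCm38 the Tagln exons share 1241 bases with the antisense gene Gm48529 and 108 with Pcsk7. The strand setting of the counting is not given in the sources used here, so the level of Tagln is uncertain.

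Myh11 encodes the smooth muscle myosin heavy chain, the motor itself and the marker of mature smooth muscle. It had the lowest mean CPM of the 8 genes, at 4.01, 4.25 and 10.1 CPM in nano-TiO2 1, 2 and 3, against 14.0, 3.29 and 2.95 CPM in sham 1, 2 and 3. These CPM rest on 66, 68 and 245 reads in the nano-TiO2 libraries and 297, 44 and 58 reads in the sham libraries. A single library was high in each group, nano-TiO2 3 and sham 1, and these are also the libraries with the most lung epithelium markers in their group. Whether that bears on Myh11 was not tested. The log2 fold change was -0.14 ± 0.64 (SE; adjusted p = 0.887, edgeR) and 1.05 without sham 1 (adjusted p = 0.152).

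Among the pericyte genes, Pdgfrb, the receptor that recruits mural cells, stood at 39.96, 58.8 and 45.9 CPM in nano-TiO2 1, 2 and 3, against 71.0, 54.5 and 64.8 CPM in sham 1, 2 and 3. Nano-TiO2 2 lay above sham 2, and the other nano-TiO2 libraries lay below all sham libraries. The means were 48.2 ± 9.63 CPM in nano-TiO2 and 63.5 ± 8.33 CPM in sham hearts (SD, n = 3 each). The log2 fold change of -0.40 ± 0.18 (SE) did not pass (adjusted p = 0.122, edgeR). Without nano-TiO2 2 the value was -0.57 (adjusted p = 0.0339), and after removal of the trend it was -0.61 (adjusted p = 0.0548). With library totals only it was 0.02 and on log2(TPM + 1) 0.24.

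Cspg4 encodes the proteoglycan NG2 on the surface of pericytes and of some other precursors. It stood at 50.0, 50.6 and 49.7 CPM in nano-TiO2 1, 2 and 3, against 69.4, 72.9 and 71.5 CPM in sham 1, 2 and 3. On this scale the libraries of each group lay close together and the groups far apart. In TPM the groups overlapped, at 14.9, 18.7 and 17.3 in nano-TiO2 1, 2 and 3, against 15.5, 13.9 and 13.4 in sham 1, 2 and 3. The means were 50.1 ± 0.448 CPM in nano-TiO2 and 71.3 ± 1.74 CPM in sham hearts (SD, n = 3 each), and edgeR gave a log2 fold change of -0.51 ± 0.11 (SE) at an adjusted p = 0.0153. Its adjusted p was 0.0600 without nano-TiO2 1, 0.0607 without nano-TiO2 3, 0.0680 without sham 1, 0.0702 without sham 2, 0.0955 with length-scaled TPM counts (log2 fold change -0.39) and 0.101 after removal of the trend (-0.45).

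Rgs5, which shortens G-protein signals and is a common pericyte marker, went the other way in its mean. It stood at 124.3, 37.4 and 96.9 CPM in nano-TiO2 1, 2 and 3, against 45.5, 53.3 and 123.5 CPM in sham 1, 2 and 3. The lowest library was a nano-TiO2 library and each group had a library near the highest value, so the groups overlapped over most of the range. The log2 fold change was 0.22 ± 0.53 (SE; adjusted p = 0.789, edgeR) and it lay at -0.14 without nano-TiO2 1 and -0.28 with the trend removed.

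**Figure D2:**
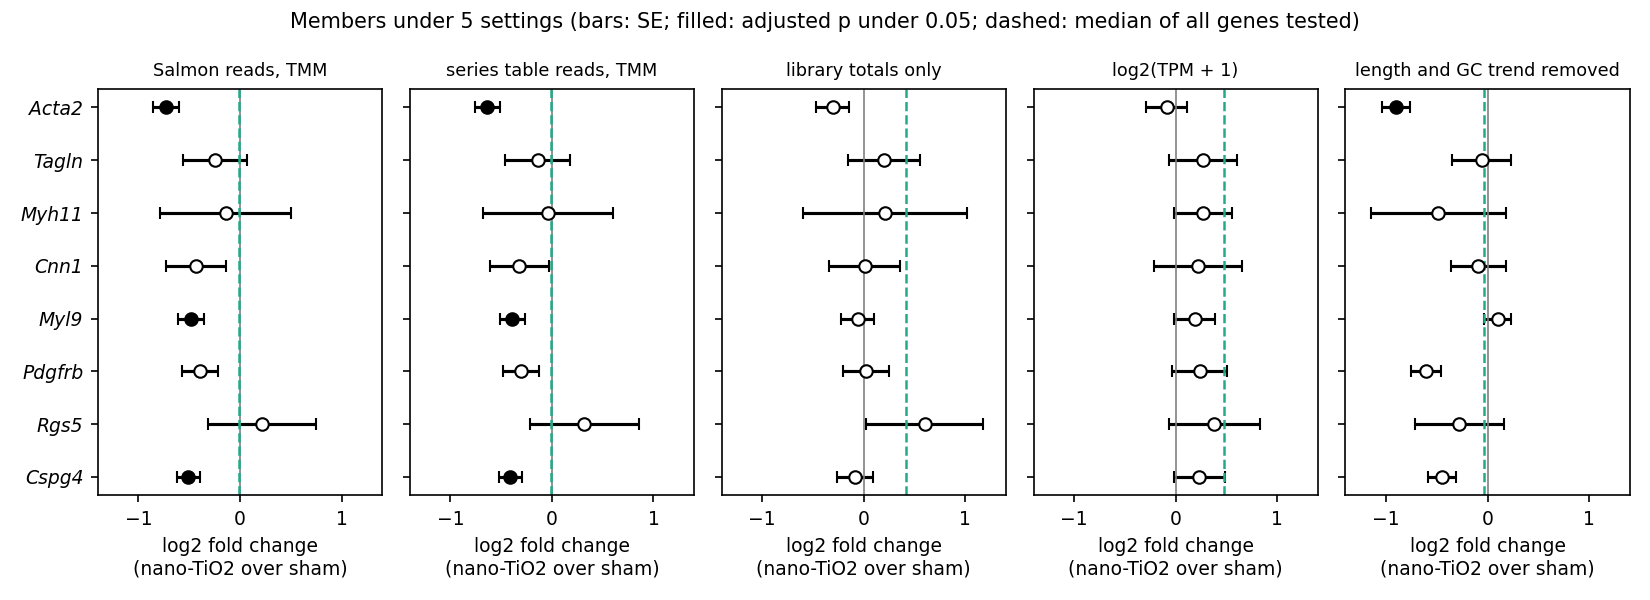
Log2 fold change (nano-TiO2 over sham, x axis) of the 8 genes under 5 ways of processing, 1 panel each; bars are the SE, filled points had an adjusted p under 0.05 and the dashed line is the median of all genes tested. Acta2 lies below 0 in all 5 panels, while Myl9 lies above 0 with the trend removed and Myl9 and Cspg4 on log2(TPM + 1).

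The direction of these differences is relative to the typical gene. With library totals only, the median of all genes was at 0.41 and Acta2 at -0.31, Cspg4 at -0.09 and Myl9 at -0.06, with 0 members called by edgeR (0 at an unadjusted p under 0.05), where 0.359% of all genes were lower. On log2(TPM + 1) the median gene was at 0.48, Acta2 at -0.09, Myl9 at 0.19 and Cspg4 at 0.23, with 0 members called by limma (0 at an unadjusted p under 0.05), where 38% of all genes were higher and 0.134% lower. In both settings the 3 genes lay below the median gene. DESeq2, limma-voom and edgeR on the whole reads recovered from the deposited table of reads per bin each called 3 of 8 lower. In the bin-table reads Acta2 was at -0.63 (adjusted p = 0.00877), Cspg4 at -0.41 (0.0290) and Myl9 at -0.39 (0.0423), where 10.8% of all genes were lower.

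Per length, in TPM, Myl9 and Acta2 led the set. Over all 6 libraries Myl9 averaged 1033 TPM (868 to 1278) and Acta2 931 TPM (792 to 1158), and these 2 overlapped. Cnn1 followed at 148 TPM (93.7 to 273), apart from its neighbours. Rgs5 (27.7 TPM, 15.2 to 42.7), Tagln (26.7 TPM, 16.9 to 47.6), Cspg4 (15.6 TPM, 13.4 to 18.7) and Pdgfrb (10.7 TPM, 7.00 to 16.04) came next, each overlapping the one after it. Myh11 was last at 1.00 TPM (0.339 to 1.88), below all the others. The motor heavy chain was far below the light chain and the actin of the same apparatus in these hearts.

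The genes also differed in how they moved from library to library. Across the 6 libraries, log2 CPM of Acta2 and Myl9 had a Pearson r of 0.99, and 0.99 again within groups. Tagln and Cnn1 had an r of 0.89 (0.90 within groups), and Rgs5 ran against both, at -0.96 with Tagln and -0.90 with Cnn1 (-0.97 and -0.98 within groups). Acta2 and Cspg4 had an r of 0.96 over all libraries and 0.00 within groups. Of the 28 pairs, 20 had an r above 0 and 8 below. These values describe 6 points that share library depth and composition. Of 9939 candidate genes, the 3 most like Acta2 by Pearson r over the 6 libraries were Ubl5 (0.998), Tk1 (0.995) and Psmb2 (0.995). The 3 most like Pdgfrb were Supv3l1 (0.999), Rnf41 (0.998) and Mapk8ip1 (0.993).

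**Figure D3:**
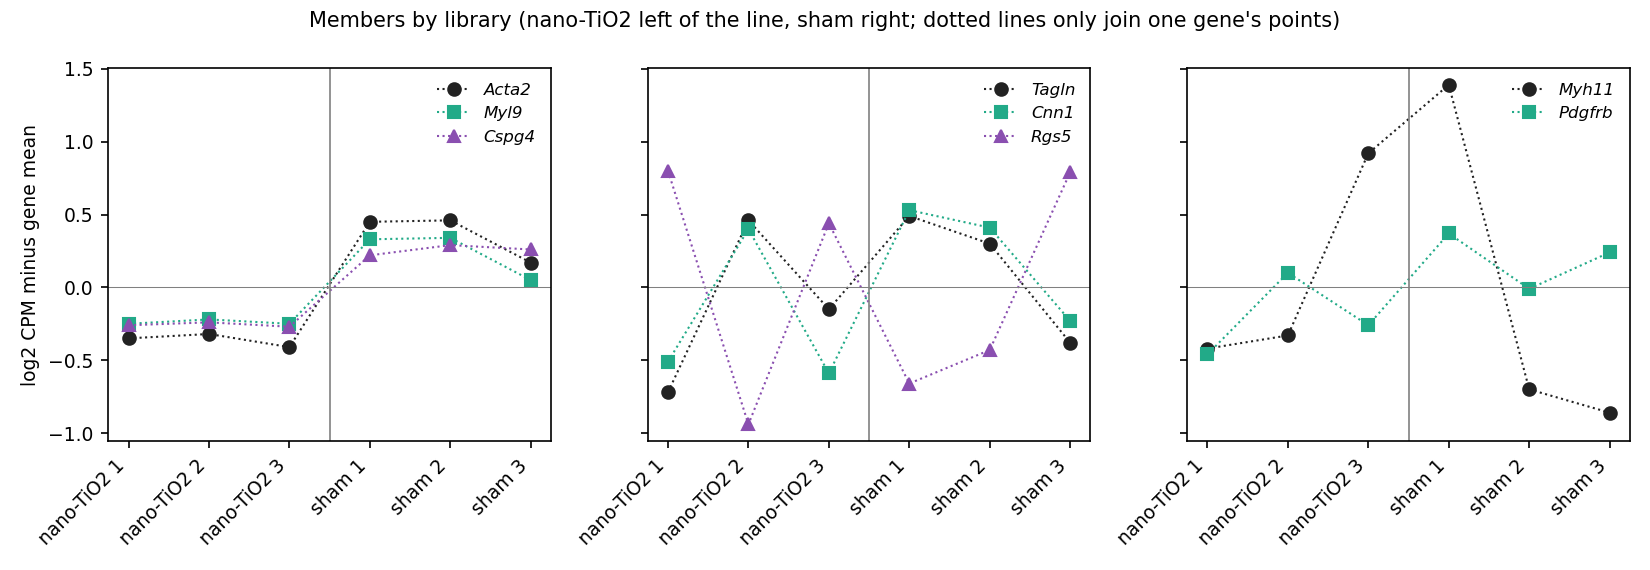
Log2 CPM of each gene minus its mean over the 6 libraries (y axis), by library, with the nano-TiO2 libraries left of the line and the sham libraries right of it; dotted lines join the points of 1 gene. Acta2, Myl9 and Cspg4 are below 0 in all 3 nano-TiO2 libraries, Rgs5 is high where Tagln and Cnn1 are low, and Myh11 is high in nano-TiO2 3 and sham 1.

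At the level of transcripts, 1 of 18 tested transcripts of these genes was lower (edgeR, adjusted over all 30409 transcripts tested, of which 1.1% were lower), and 0 were higher by edgeR (0 at an unadjusted p under 0.05). It was Acta2-201, the full-length coding transcript, which took 97.9% of the Acta2 reads (log2 fold change -0.76 ± 0.12 SE, adjusted p = 0.0487). Leaving out any one of the 6 libraries left 0 calls among all transcripts by edgeR (5025 to 6820 at an unadjusted p under 0.05), this one included. Myl9-201 took 99.3% of the Myl9 reads (-0.52 ± 0.12 SE, adjusted p = 0.0691). Salmon assigned most of the Cspg4 reads to transcripts other than the coding one. The retained-intron transcript Cspg4-204 took 62.5% of them and the coding Cspg4-201 took 30.8%. The Cspg4-201 share ran from 12.3% in nano-TiO2 3 to 45.7% in sham 3. Whether the place of the reads along the gene bears on this split was not tested. Cspg4-201 stood at 15.2, 16.4 and 6.23 CPM in nano-TiO2 1, 2 and 3, against 26.7, 14.9 and 33.2 CPM in sham 1, 2 and 3 (adjusted p = 0.272). The groups lay apart for the whole gene and overlapped for this transcript.

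Rgs5 has a long transcript, Rgs5-201, and a short one, Rgs5-202, of 723 bases. The share of Rgs5 reads given to Rgs5-202 was 5.13%, 6.35% and 6.27% in nano-TiO2 1, 2 and 3, against 15.8%, 15.4% and 11.1% in sham 1, 2 and 3. The groups did not overlap (5.92 ± 0.682% in nano-TiO2 and 14.1 ± 2.61% in sham, SD, n = 3 each; two-sided exact permutation p = 0.1, the smallest this design allows). The bin table, a separate count of the reads, also set the groups apart for the first 20% of the Rgs5 exon bases. This share was 12.3%, 18.2% and 16.2% in nano-TiO2 1, 2 and 3, against 27.7%, 28.8% and 24.3% in sham 1, 2 and 3. Its exact permutation p was 0.1, and 0.4 adjusted over the 8 genes. How far these bases belong to Rgs5-202 was not tested. This transcript was singled out after its values were seen, and both measures use the same libraries. The first-20% share also separated the groups for Myh11, a gene with few reads. It was 0.557 ± 0.964% in nano-TiO2 and 3.03 ± 1.61% in sham hearts (SD, n = 3 each). Its exact permutation p was 0.1, and 0.4 adjusted over the 8 genes. In the remaining members the exact permutation p was 0.6 or more. How often such shares separate the groups outside the 8 genes was not tested. Across genes, shorter transcripts also tended lower, with a median log2 fold change of -0.43 in the shortest quintile and 0.61 in the longest. Whether this trend bears on the Rgs5-202 share was not tested. Salmon's log2 fold change for Rgs5-202 was -1.02 ± 0.46 (SE, adjusted p = 0.260, edgeR), and that for Rgs5-201 was 0.29 ± 0.57 (SE, adjusted p = 0.832).

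Along the genes, the bin table gives reads in steps of 25 bases, and bins of 1 gene are not independent. Of 63 tested Acta2 bins, 51 were lower in nano-TiO2 hearts (limma, adjusted over all 245114 bins, of which 4.48% were lower), with a median log2 difference of -0.67, against -0.25 over all bins. Leaving out nano-TiO2 1, nano-TiO2 3, sham 1 or sham 2 left 0 of these 63 by limma (53 to 54 at an unadjusted p under 0.05), with medians of -0.67 to -0.62. In the same fits limma called 0 to 59 of all 245114 bins lower (0 without nano-TiO2 1, where 45221 had an unadjusted p under 0.05). All 41 tested Myl9 bins and all 59 Cnn1 bins lay below 0 (medians -0.43 and -0.38), and 0 of either passed by limma (38 and 7 at an unadjusted p under 0.05). The share of Acta2 reads in the first 20% of its exon bases was 7.99 ± 0.540% in nano-TiO2 and 8.27 ± 0.461% in sham hearts (SD, n = 3 each; exact permutation p = 0.6). Cspg4 reads lay mostly in the last 20% of the exon bases, 62.5%, 64.3% and 73.1% in nano-TiO2 1, 2 and 3, against 63.4%, 73.2% and 61.1% in sham 1, 2 and 3.

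**Figure D4:**
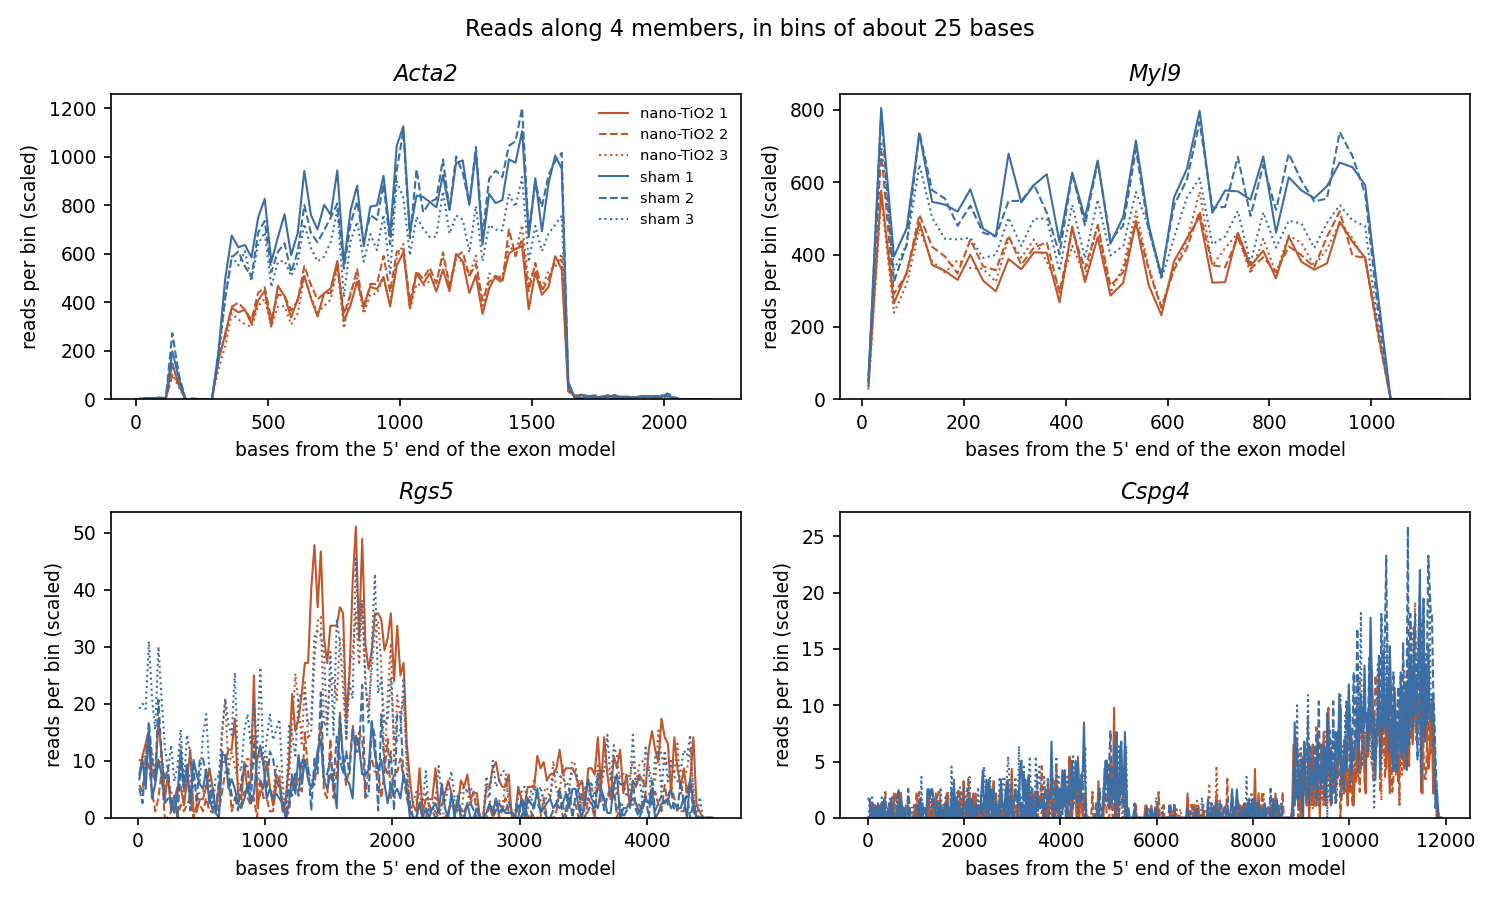
Reads per bin as the authors scaled them (y axis) along the exons of Acta2, Myl9, Rgs5 and Cspg4 from the 5′ end (x axis, bases), 1 line per library, nano-TiO2 in red and sham in blue. The nano-TiO2 lines of Acta2 run mostly below the sham lines along the covered exons, the Rgs5 levels differ by library, and Cspg4 reads pile up near the 3′ end.

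The partners of the contractile apparatus moved in both directions. Of 27 such genes, 9 were higher and 5 lower in nano-TiO2 hearts, with a median log2 fold change of -0.05. The shares over all genes tested were 15.5% higher and 12.8% lower. On log2(TPM + 1), where 38% of all genes were higher, limma called 14 of the 26 tested higher and 0 lower (14 in all at an unadjusted p under 0.05). With library totals only, where 30.7% of all genes were higher, edgeR called 10 higher and 0 lower (14 in all at an unadjusted p under 0.05). The intermediate filament gene Des (859 ± 52.5 CPM in nano-TiO2 and 1343 ± 114 in sham, SD, n = 3 each) was lower by edgeR (-0.64, adjusted p = 0.0105). So were Myl6, the essential light chain of smooth muscle and non-muscle myosin (-0.57, adjusted p = 0.0107), and Cnn2, a broadly made calponin (-0.59, adjusted p = 0.0126), although all 3 lay above 0 on log2(TPM + 1). Des is also an abundant protein of cardiomyocytes. Cald1, the actin-binding caldesmon, was higher, at 97.2 ± 10.1 CPM in nano-TiO2 and 54.0 ± 3.99 CPM in sham hearts (SD, n = 3 each; 0.85, adjusted p = 0.00736). Ppp1r12a, the myosin phosphatase targeting subunit that opposes contraction, was at 108.7 ± 23.3 CPM in nano-TiO2 and 53.0 ± 5.88 CPM in sham hearts (SD, n = 3 each; 1.04, adjusted p = 0.00846). Mylk, the light chain kinase, did not pass (0.47, adjusted p = 0.325). After removal of the trend Cald1 was still called (0.68, adjusted p = 0.0294) and was the 1 call left in this list, with Ppp1r12a at 0.43, Des at -0.47, Cnn2 at -0.37 and Myl6 at 0.06. In place of 14 calls there were 3 or 4 when nano-TiO2 1 or 3 was left out and 8 or 3 when sham 1 or 2 was left out. Among single genes, Myl6 lost its call without nano-TiO2 1 or sham 2 (adjusted p up to 0.0534) and Cnn2 without nano-TiO2 1 or 3 or sham 1 or 2 (up to 0.0695).

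Among the transcription factors of mural cells, 7 of 21 were higher and 1 lower (median 0.55). The shares over all genes tested were 15.5% higher and 12.8% lower. On log2(TPM + 1), where 38% of all genes were higher, limma called 12 of the 19 tested higher and 0 lower (15 in all at an unadjusted p under 0.05). With library totals only, where 30.7% of all genes were higher, there were 10 higher and 0 lower by edgeR (11 in all at an unadjusted p under 0.05). Myocd, the cofactor myocardin that works with serum response factor at CArG boxes in smooth muscle and heart muscle, was higher while Acta2 was lower. It stood at 188, 152 and 169 CPM in nano-TiO2 1, 2 and 3, against 107, 97.0 and 116 CPM in sham 1, 2 and 3. The groups did not overlap, and edgeR gave a log2 fold change of 0.67 ± 0.13 (SE) at an adjusted p = 0.0113. After removal of the trend it was 0.87 (adjusted p = 0.0343). Srf itself stood at 17.8, 17.2 and 24.6 CPM in nano-TiO2 1, 2 and 3, against 26.2, 34.6 and 26.3 CPM in sham 1, 2 and 3, and did not pass (-0.54, adjusted p = 0.0738 by edgeR and 0.0438 by DESeq2). Rbpj, the DNA-binding partner of Notch (0.92), Hey2, a Notch target (0.87), Mef2c, a muscle factor (1.08), and Tbx18, a factor of epicardium and mural cells (0.99), were higher with adjusted p from 0.0107 to 0.0209. With the trend removed these 4 were at 0.08 to 0.61 and 1 gene of the list, Myocd, was called. The list's median was then 0.23, against -0.03 over all genes. In place of 8 calls there were 4 when nano-TiO2 1 was left out and 5 when nano-TiO2 3 or sham 3 was left out. Tbx18 lost its call without nano-TiO2 1 (adjusted p = 0.0686) or nano-TiO2 3 (0.0751). Myocd, Mef2c and Hey2 are also made by cardiomyocytes.

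**Figure D5:**
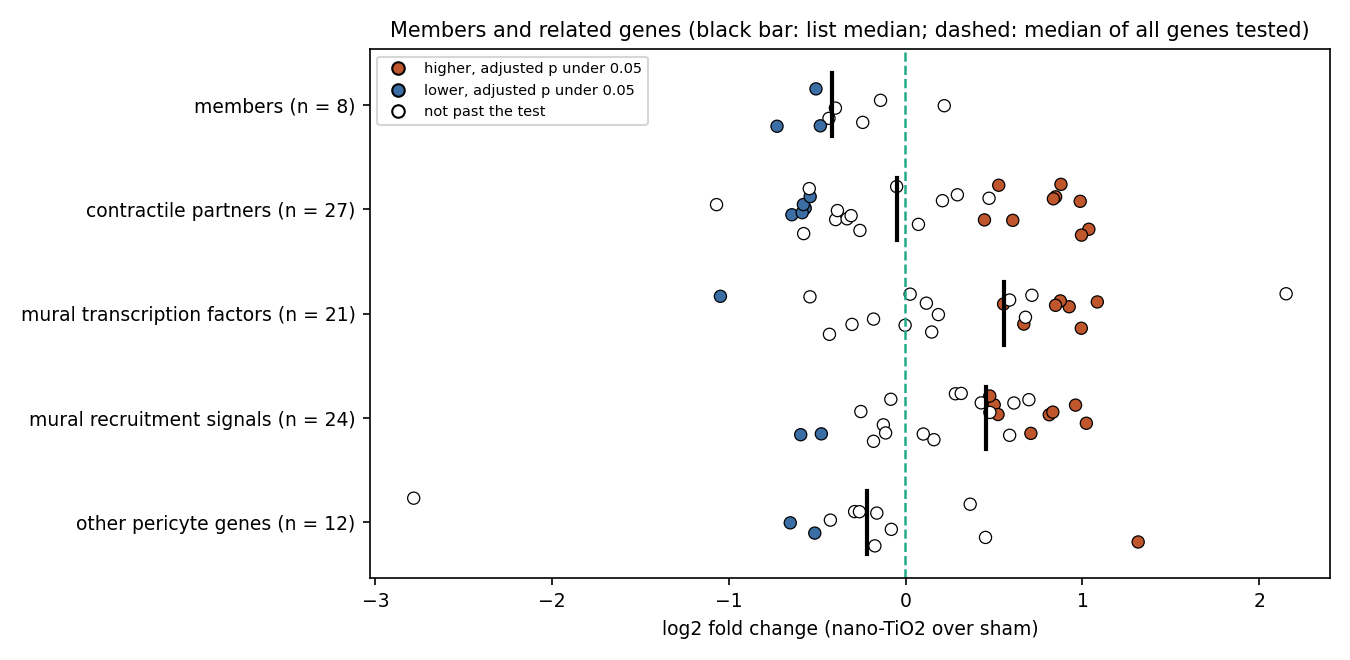
Log2 fold change (nano-TiO2 over sham, TMM scaling, x axis) of every tested member and related gene, 1 point a gene, red or blue where it was higher or lower at an adjusted p under 0.05; the black bar is the list's median and the dashed line that of all genes. The medians of the members (-0.42) and other pericyte genes (-0.22) lie below 0. Those of the transcription factors (0.55) and recruitment signals (0.45) lie above. On log2(TPM + 1) all these medians lie above 0, and with the trend removed they are -0.36, -0.03, 0.23 and 0.03 in turn.

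Of 24 genes that recruit or instruct mural cells, 8 were higher and 2 lower (median 0.45), against 15.5% and 12.8% of all genes. On log2(TPM + 1), where 38% of all genes were higher, limma called 12 of 23 higher and 0 lower. With library totals only, where 30.7% of all genes were higher, edgeR called 13 of 24 higher and 0 lower. In either there were 15 in all at an unadjusted p under 0.05. Pdgfb, the ligand of Pdgfrb, stood at 9.31 ± 2.97 CPM in nano-TiO2 and 10.1 ± 1.91 CPM in sham hearts (SD, n = 3 each; adjusted p = 0.774), and the mural receptor gene Notch3 at 25.3 ± 2.93 CPM in nano-TiO2 and 30.2 ± 2.44 CPM in sham hearts (SD, n = 3 each; adjusted p = 0.242). The growth factor gene Tgfb2 (0.81, adjusted p = 0.00846), the angiopoietin receptor gene Tek (1.02, adjusted p = 0.00988) and the Notch ligand gene Jag1 (0.83, adjusted p = 0.0130) were higher by edgeR. The endothelial genes Eng (-0.48, adjusted p = 0.0221) and Dll4 (-0.59, adjusted p = 0.0225) were lower, although both lay above 0 on log2(TPM + 1). With the trend removed 0 of the 24 passed by edgeR (4 at an unadjusted p under 0.05), with Tgfb2 at 0.26, Tek at 0.29, Jag1 at 0.10 and Dll4 at -0.56. The list's median was then 0.03, against -0.03 over all genes. In place of 10 calls there were 4, 6 or 2 when nano-TiO2 1, 2 or 3 was left out and 5, 2 or 6 when sham 1, 2 or 3 was left out. Among single genes, Eng lost its call in all fits except those without nano-TiO2 2 or sham 3 (adjusted p up to 0.108), Dll4 in all except that without nano-TiO2 2 (up to 0.112), and Jag1 without nano-TiO2 3 or sham 2 (up to 0.0563).

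Of 12 further pericyte genes, 1 was higher and 2 lower (median -0.22), against 15.5% and 12.8% of all genes. On log2(TPM + 1), where 38% of all genes were higher, limma called 3 higher and 0 lower. With library totals only, where 30.7% of all genes were higher, edgeR called 2 higher and 0 lower. In either there were 3 in all at an unadjusted p under 0.05. Abcc9, the potassium channel regulator of pericytes and also of heart muscle, stood at 70.3, 39.8 and 57.3 CPM in nano-TiO2 1, 2 and 3, against 23.9, 15.8 and 27.4 CPM in sham 1, 2 and 3 (1.32, adjusted p = 0.0116, edgeR). The connexin gene Gja4 (-0.51, adjusted p = 0.0272) and the cytochrome oxidase subunit gene Cox4i2 (-0.65, adjusted p = 0.0392) were lower, although Gja4 lay above 0 on log2(TPM + 1). Both lost their calls without nano-TiO2 1, sham 1 or sham 2. Gja4 did so also without nano-TiO2 3, and Cox4i2 without nano-TiO2 2 or sham 3 (adjusted p up to 0.130 for Gja4 and 0.128 for Cox4i2). With the trend removed 0 of the 12 passed by edgeR (1 at an unadjusted p under 0.05), with Abcc9 at 0.34. The list's median was then -0.03, as it was over all genes. Vtn stood at 31.3 CPM in sham 2 and at 0.850 to 3.05 CPM in the other 5 libraries; it is also a hepatocyte gene, and sham 2 is the library with the most hepatocyte markers.

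Markers of other cells gave the following values beside the mural genes. Their calls are read against 12.8% lower and 15.5% higher over all genes tested. The 10 cardiomyocyte markers summed to 42838, 33621 and 41130 CPM in nano-TiO2 1, 2 and 3, against 46767, 51259.5 and 53011 CPM in sham 1, 2 and 3, with 4 lower and 1 higher. The 8 fibroblast markers summed to 2907 to 3104 CPM in nano-TiO2 and 2805 to 3369 CPM in sham libraries, and the 8 endothelial markers to 511 to 542.5 CPM in nano-TiO2 and 519.7 to 543 CPM in sham libraries. The 7 epicardial markers summed to 264 to 291 CPM in nano-TiO2 and 226 to 302 CPM in sham libraries. In CPM the ranges of the fibroblast, endothelial and epicardial sums overlapped between groups, and those of the cardiomyocyte sums did not. In TPM the cardiomyocyte, fibroblast and endothelial sums were all higher in every nano-TiO2 library than in every sham library. The 10 erythroid markers, 6 of them lower, summed to 45558 to 93372 CPM in nano-TiO2 and 121056 to 300132 CPM in sham libraries. In TPM the erythroid sums overlapped between groups. The 5 smooth muscle genes themselves summed to 2442, 2641 and 2400 CPM in nano-TiO2 1, 2 and 3, against 4093, 4091 and 3288 CPM in sham 1, 2 and 3, most of it Acta2 and Myl9. In TPM the sums of these 5 genes overlapped between groups. The 3 pericyte genes summed to 214, 147 and 193 CPM in nano-TiO2 1, 2 and 3, against 186, 181 and 259.9 CPM in sham 1, 2 and 3, with overlap. The part of cardiomyocyte and erythroid content in the Acta2, Myl9 and Cspg4 differences was not tested.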

How the data were processed

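Gene values are Salmon estimated counts (reads assigned per transcript) and TPM, as deposited by the authors for each of the 6 input libraries. The series table of reads per 25-base bin, normalised by the authors, is a signal divided by 1 factor per library, per the file headers and values; 100% of its values were whole multiples of 1 read within 0.001, and those reads were recovered. Per the submitters' processing notes, the tools were Salmon 1.5.2, HISAT2 2.2.1 and DESeq2 1.34.0, with no roles named, and the build was GRCm39. What transcript set, strand setting and bin counter were used is not given in the sources used here.

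Of 116747 transcripts, 115685 matched the GENCODE annotation and 1062 did not (at most 0.770% of reads in a library). Counts were summed per gene, rounded, filtered with filterByExpr, TMM-scaled and tested with edgeR 4.0.16 (robust quasi-likelihood, group only), with Benjamini-Hochberg adjustment over 13930 genes and a threshold of 0.05. Alternatives used DESeq2 1.42.0, limma 3.58.1 (voom; log2(TPM + 1) where the mean TPM was 1 or more) and trend offsets over length and GC (mgcv 1.9.3). Bins with a mean of at least 10 were tested with limma on log2(value + 1). From where reads pile up on genes of each strand, the bins were taken to run in genomic order, and genes on the minus strand were turned round. The tests were checked on simulated data with known answers. When a trend over length was simulated, edgeR made far more false calls with the trend left in, as in the tests reported first here, than with it removed.

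The members and lists were chosen with earlier results of these data known. Named are all members and, from each list of related genes, the 5 with the smallest p plus Myocd, Srf, Pdgfb, Notch3, Des and Mylk. Genes most like Acta2 and Pdgfrb were taken by Pearson r where the mean CPM was 5 or more, ribosomal protein genes and unnamed models left out. No replicates looked like 1 library counted more than once: chi-square per degree of freedom between replicates was 16.4 to 145.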

Additional observations from a re-analysis of the deposited data

How the results depend on the processing

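Counts of calls moved with several choices. Of the 8 members, 3 were called; the number was 0 with library totals only, on log2(TPM + 1), on log2(TPM + 0.1) and without sham 2 and nano-TiO2 3 (2 at an unadjusted p under 0.05 by edgeR); 1 after removal of the trend over length and GC, with that and the replicate block, in trend-free bin-table reads (this setting alone was added after the data had been seen) and with the replicate block; 2 with length-scaled TPM counts; and 1 to 5 without single libraries. The 14 calls among contractile partners became 9 with the block, 0 without sham 2 and nano-TiO2 3, 1 with the trend removed, 0 with trend and block, 2 in bin-table reads with the trend removed and 3 to 15 without single libraries. The 8 among transcription factors became 0 without the 2 libraries, 1 with the trend removed, 1 with trend and block, 3 in trend-free bin-table reads and 4 to 7 without single libraries. The 10 among recruitment signals became 4 with length-scaled TPM counts, 3 with the block, 0 without the 2 libraries, 0 with the trend removed, 0 with trend and block, 1 in trend-free bin-table reads and 2 to 6 without single libraries. The 3 among other pericyte genes became 1 with length-scaled TPM counts, 1 with the block, 0 in the other 4 of these settings and 1 to 2 without single libraries. All genes called, 3935, became 2436 with length-scaled TPM counts, 2057 with the block, 0 without the 2 libraries, 509 with the trend removed, 120 with trend and block, 699 in trend-free bin-table reads and 1303 to 4272 without single libraries. The 1 isoform call became 0 without every single library and with the replicate block, and 3 as gene sums; the 51 bin calls became 0 to 63.

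Directions changed in these settings. On log2(TPM + 1) and log2(TPM + 0.1) the log2 fold changes were 0.27 and 0.28 for Tagln, 0.27 and 0.65 for Myh11, 0.22 and 0.22 for Cnn1, 0.19 and 0.19 for Myl9, 0.24 and 0.26 for Pdgfrb, 0.23 and 0.25 for Cspg4, 0.033 and 0.033 for Des, 0.081 and 0.081 for Myl6, 0.089 and 0.090 for Cnn2, 0.22 and 0.23 for Eng, 0.057 and 0.064 for Dll4, 0.39 and 0.48 for Notch3, 0.45 and 0.54 for Pdgfb, 0.068 and 0.073 for Srf, and 0.16 and 0.17 for Gja4. With library totals only they were 0.20 for Tagln, 0.21 for Myh11, 0.0098 for Cnn1, 0.023 for Pdgfrb, 0.17 for Notch3 and 0.31 for Pdgfb. With the trend removed, with trend and block, and in trend-free bin-table reads they were 0.098, 0.098 and 0.0998 for Myl9, -0.28, -0.31 and -0.24 for Rgs5, 0.058, 0.056 and 0.032 for Myl6, 0.15, 0.11 and 0.094 for Pdgfb, and 0.11, 0.097 and 0.049 for Cox4i2. Myh11 was at 0.11 by limma-voom and 0.12 with the block, Rgs5 at -0.19 with length-scaled TPM counts and -0.027 without sham 2 and nano-TiO2 3, where Mylk was at -0.061. Without single libraries Tagln ranged from -0.59 to 0.0024, Myh11 from -0.72 to 1.05, Rgs5 from -0.14 to 0.84 and Pdgfb from -0.41 to 0.068. The causes were not tested. The fits that leave libraries out also rest on fewer samples.

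No pairing of samples by equal replicate numbers was seen (correlations of deviations -0.39, 0.02 and -0.08), and no library correlated best with its own number. With 3 pools a group these correlations cannot exclude pairing, and the labels do not say. Cnn1, Tagln, Pdgfrb and Rgs5 did not pass with 3 pools a group, which does not show that they were equal between groups, and Myh11 rests on as few as 44 reads.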
